A study of Rattus norvegicus with 32 samples.

Results

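The P2X purinergic receptors are described here in rat brain RNA-seq data by the genes of 6 subunits, P2rx2, P2rx3, P2rx4, P2rx5, P2rx6 and P2rx7. They were taken by gene symbol, and they are 6 of the 28914 genes counted in each sample. All 6 passed the filter on low counts over the 32 samples, which 16122 genes passed. P2rx1, the remaining subunit gene of the family, is given beside them for comparison.

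P2X receptors are cation channels of the cell membrane that open when extracellular ATP binds, and each channel is built of a trio of subunits. ATP reaches them from synaptic vesicles, from channels such as pannexin 1 and from damaged cells, and enzymes at the cell surface break it down to adenosine. P2X4 and P2X7 are the subunits best known from microglia and other glia, P2X7 being the one that drives the NLRP3 inflammasome and interleukin-1β release. P2X2 and P2X3 are best known from sensory and autonomic neurons. P2X6 forms poor channels alone and is known mainly as a partner of P2X2 and P2X4.

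The samples came from adult male Sprague-Dawley rats that received either methamphetamine hydrochloride (METH, 10 mg/kg) or saline (Sal, 1 mL/kg) by intraperitoneal injection, 4 times at intervals of 2 h, with dissection 24 h after the last dose. The regions were the nucleus accumbens (NAc), the subventricular zone (SVZ) and 2 parts of the hippocampus, Ammon's horn (CA) and the dentate gyrus (DG), with 4 METH and 4 saline samples in each region. The NAc and SVZ were punched from brain slices and the DG and CA were dissected by hand, so that each sample holds all cell types of its piece of tissue. In such bulk samples, fewer cells of a type and less RNA per cell cannot be told apart.

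Total counts per sample ran from 11094002 to 21869773. Levels are given as CPM (a gene's reads per library size, with sizes normalized by the upper quartile), and at these totals 1 read is worth 0.0459 to 0.094 CPM. Some libraries stand apart by the names in their file headers. The name prefixes are split unevenly between treatments, and the labels do not state what they stand for. In the NAc, saline samples 1 and 2 and METH samples 3 and 4 had prefixes not found in the other treatment. So did saline samples 1, 2 and 4 and METH samples 3 and 4 of the DG, and saline samples 1 and 2 of the CA. The main fits have no term for the prefix. The library numbers 14, 15 and 20 to 25 recur in the NAc, DG and CA, so that samples of these regions may come from the same animals, which the labels do not state, and the fits treat all samples as separate. In the DG, saline samples 1 and 2 carry numbers that belong to METH samples in the NAc and CA, and METH samples 1 and 2 carry numbers that belong to saline samples there. Whether the treatment labels of these 4 DG libraries are exchanged was not tested, and every DG value below follows the labels. In the SVZ, METH samples 1 and 2 share a library number, as do METH samples 3 and 4. Whether SVZ samples that share a number come from the same animal is not stated, and the fits count them as separate samples. Saline samples 1 and 2 and METH samples 2 and 4 of the SVZ have the word EXTRA in the name, which is not explained in the sources used here. All 8 SVZ libraries also have a kind of number and name used for no other region, so that the SVZ and whatever this naming stands for cannot be told apart. The SVZ libraries also differ in marker genes of thalamic neurons. The summed level of 9 thalamic neuron markers was 2100, 1830 and 1260 CPM in saline sample 1 and METH samples 2 and 4, against 136 to 682 CPM in the other SVZ samples and 65.1 to 385 CPM elsewhere. NAc METH 3 stands apart by its markers. Its sum of 9 markers of striatal medium spiny neurons, the main neurons of the NAc, was 301 CPM, against 1610 to 7800 CPM in the other 7 NAc samples, and its thalamic sum of 385 CPM was the highest outside the SVZ.

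By the counts of the sample files, P2rx4, P2rx6 and P2rx7 made up most of the P2X mRNA in every region. To compare genes, counts were divided by the length of the annotated exons, as CPM per kb. Over the 32 samples the level per length was 5.62 ± 1.31 CPM per kb (SD, n = 32) for P2rx4, 4.89 ± 3.94 for P2rx6 and 2.9 ± 0.764 for P2rx7. P2rx5, P2rx2 and P2rx3 followed at 0.501 ± 0.642, 0.484 ± 0.498 and 0.293 ± 0.137 CPM per kb, and P2rx1 had 0.178 ± 0.0854. The ranges within 1 SD of neighbours in this order overlap, except between P2rx7 and P2rx5. The lowest sample of P2rx7 was at 1.96 CPM per kb, and the highest samples of P2rx5 and P2rx2 reached 2.8 CPM per kb each. P2rx4 exceeded 40.9% of the genes tested by its level per length, P2rx6 38.1%, P2rx7 28.8% and P2rx3 3.55%. None of these genes was abundant.

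**Figure D1:**
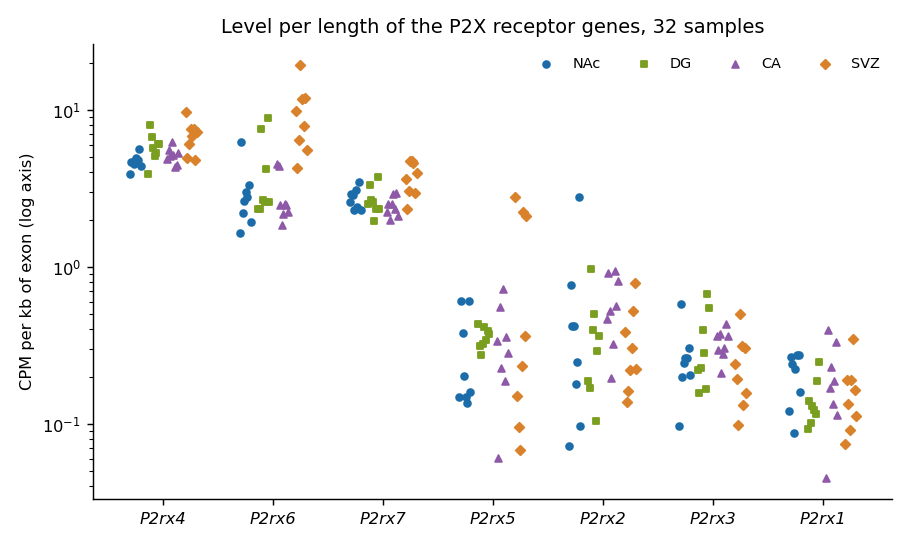
Level per length of the P2X genes in each of the 32 samples (CPM per kb of exon, log axis), with colour and shape giving the region. P2rx4, P2rx6 and P2rx7 lie at 1.65 CPM per kb or more in every sample, and P2rx5, P2rx2, P2rx3 and P2rx1 reach down to 0.0963 CPM per kb or less.

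As a share of the summed P2X level per length, P2rx4 held 40.5%, P2rx6 29.9%, P2rx7 20.7%, P2rx2 3.48%, P2rx5 3.17% and P2rx3 2.16%. The P2rx6 share ranged from 16.4% to 59.8% between samples. P2rx4 and P2rx7 together held 51.4% ± 10.1 (SD, n = 4) of the sum in saline SVZ and 48.9% ± 9.1 in METH SVZ, and 61.0% to 66.7% on average in the 6 groups of the other regions. The counts behind the low genes were few: P2rx2 had 3 counts or fewer in 3 libraries, P2rx5 in 2 and P2rx1 in 3, so that differences of P2rx2, P2rx3 and P2rx5 between samples below about 1 CPM rest on a few reads.

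P2rx6, the accessory subunit gene, had its highest mean level in the SVZ in saline and in METH samples. The gene lies at chr11:87435185-87445219 on the plus strand of rn6, the build of the counts, with Lrrc74b 703 bases and Slc7a4 1163 bases away on the opposite strand. Counting did not use the strand, but no exon is shared with either gene. The stretch upstream of its start is shown because Cfap57, a gene of cilia, is among the genes with the pattern most like P2rx6 (given further on). RefSeq (GRCr8) places this stretch, the 250 bases before the start, at chr11:96954204-96954453 on the minus strand of that build. The neighbours Lrrc74b, Thap7 and Lztr1 are on opposite strands in the 2 builds as well, so that P2rx6 keeps its orientation to them. The capitals mark a match to GTTGCNAT. These letters are only a part of the X-box, the element bound by RFX transcription factors of cilium genes. They were chosen after the sequence was seen and were searched on both strands. Whether the bases beside a match complete an X-box was not tested in any gene shown.
P2rx6: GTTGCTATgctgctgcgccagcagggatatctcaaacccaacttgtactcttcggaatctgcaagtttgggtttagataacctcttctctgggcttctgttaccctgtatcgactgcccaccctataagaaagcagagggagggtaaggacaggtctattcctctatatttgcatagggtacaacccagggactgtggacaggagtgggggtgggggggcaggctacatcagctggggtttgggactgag

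The match in P2rx6 begins 250 bases before the start, at the edge of the window. For Morn3 and Cfap57, among the genes most like P2rx6, the 30 bases around the match are at chr12:39175726-39175755 (plus strand) and chr5:137433445-137433474 (minus strand) in GRCr8, and the matches begin 4 bases before and 8 bases after the start.
Morn3: cagcttgggtGTTGCCATaacaacctccca
Cfap57: cggttttctcGTTGCTATaggaactgctct
In windows of 250 bases before to 50 after the start, 826 of 27457 genes (3.01%) hold a match. P2rx1, P2rx3, P2rx4 and P2rx7 do not, which says only that the letters are not in these windows. P2rx2, P2rx5, T2 and Fhad1 were not searched. Morn3 had 9 windows and Cfap57 and P2rx6 1 each, and the first 56 bases of the P2rx6 window, the match included, are shared with a window of Lrrc74b.

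In saline samples, P2rx6 was at 22.6, 9.74, 14.7 and 44.3 CPM in SVZ samples 1 to 4. NAc samples had 3.77, 14.2, 5.05 and 6.01 CPM, DG samples 5.32, 5.33, 17.3 and 6.06 CPM, and CA samples 10.4, 9.97, 5.64 and 4.2 CPM. The spread within each region was wide, and the lowest SVZ sample lay among the highest samples of the other regions, so the groups overlap. The means were 22.8 ± 15.2 CPM (SD, n = 4) in the SVZ, 8.51 ± 5.89 in the DG, 7.55 ± 3.1 in the CA and 7.26 ± 4.72 in the NAc.

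METH samples also had their highest P2rx6 mean in the SVZ. SVZ samples were at 26.9, 18.1, 27.1 and 12.7 CPM, NAc samples at 6.86, 6.36, 7.65 and 4.41 CPM, DG samples at 5.9, 9.6, 20.3 and 5.9 CPM, and CA samples at 4.93, 5.75, 5.63 and 5.11 CPM. Of the 12 METH samples of other regions, DG METH 3 at 20.3 CPM was the only one within the SVZ range.

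In saline samples, P2rx6 in the SVZ had a log2 fold change over the mean of the other regions of 1.55 (SE 0.41), with an adjusted p of 0.0453 by edgeR's quasi-likelihood test. A gene counted as region-specific at an adjusted p under 0.01 and a level over 2-fold higher, so P2rx6 was not called in saline SVZ, where 0.058% of the 15515 genes tested (9 genes) were. At an unadjusted p under 0.05, 25.4% of all genes differed in this comparison. In the METH samples, fitted in the same way, the log2 fold change of P2rx6 was 1.59 (SE 0.27) with an adjusted p of 0.00191, and the gene was called, as were 2.02% of 15615 genes (39.9% at an unadjusted p under 0.05).

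The difference kept its direction without the EXTRA libraries: with them left out, it was 1.92 (SE 0.49, adjusted p = 0.0721) in saline samples and 1.93 (SE 0.31, adjusted p = 0.00427) in METH samples by edgeR. In saline samples it also rested on SVZ sample 4, without which it was 1.01 (adjusted p = 0.189). Without the DG libraries with crossed numbers it was 1.40 (adjusted p = 0.111) in saline samples and 1.47 (adjusted p = 0.00748) in METH samples. In METH samples without NAc METH 3 it was 1.62 (adjusted p = 0.00183). With all libraries, DESeq2 gave an adjusted p of 0.00911 for saline samples and called it. No other region stood apart in P2rx6: the NAc, DG and CA differed among themselves on the log2 scale by -0.24 (NAc minus DG), -0.06 (NAc minus CA) and 0.18 (DG minus CA), with adjusted p = 0.903 to 0.967 by edgeR. The differences from the SVZ were -1.65 for the NAc, -1.41 for the DG and -1.59 for the CA, with adjusted p of 0.245, 0.209 and 0.0669.

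**Figure D2:**
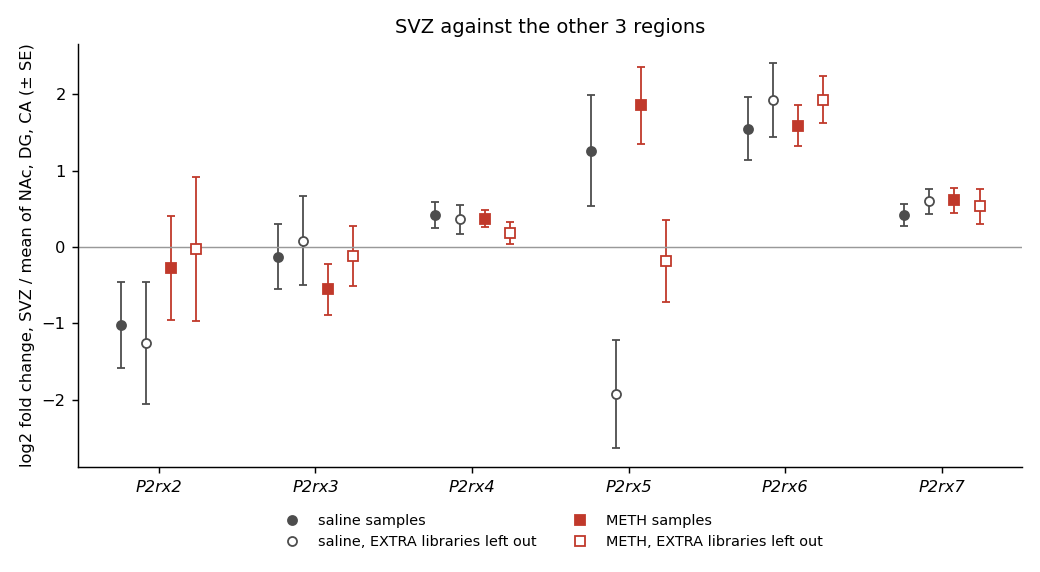
Log2 fold change (± SE) of each P2X gene in the SVZ against the mean of the NAc, DG and CA, in saline (grey circles) and METH samples (red squares), with all libraries (filled) and with those named EXTRA left out (open). P2rx6 lies between 1.55 and 1.93 in all 4 fits, and P2rx5 changes sign when these libraries are left out.

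P2rx6 varied with genes of ependymal cells, the ciliated cells that line the ventricles. Over the 32 samples, its log2(CPM + 1) had a Pearson correlation of 0.826 with the summed level of 7 measured ependymal markers, and of 0.780 when each sample was taken as the deviation from its group mean. The ependymal sum in saline SVZ samples 1 to 4 was 21.1, 34.9, 48.2 and 117 CPM, and in METH SVZ samples 62.9, 12.8, 80.6 and 14.3 CPM. The 24 samples of the other regions ran from 6.97 to 59.9 CPM. The samples with the highest P2rx6 outside the SVZ, DG METH 3, DG Sal 3 and NAc Sal 2, had sums of 59.9, 46.7 and 33.8 CPM. Other markers also set the DG samples apart. DG METH 3 had a choroid plexus sum of 6370 CPM. DG Sal 3 had a medium spiny neuron sum of 1870 CPM, against 227 to 302 CPM in the other saline DG samples. With the choroid plexus sum P2rx6 had correlations of 0.466 and 0.368, over samples and over deviations.

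The ependymal sum did not order all SVZ samples. Saline sample 1 and METH samples 2 and 4 had sums of 12.8 to 21.1 CPM, within the range of the other regions, and P2rx6 at 12.7 to 22.6 CPM. These are the 3 libraries with the high thalamic sum, with which P2rx6 had a correlation of 0.704 over all samples and 0.385 over deviations. The part of either cell type in the P2rx6 difference was not tested. The samples share regions and possibly animals, so these correlations are descriptions.

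**Figure D3:**
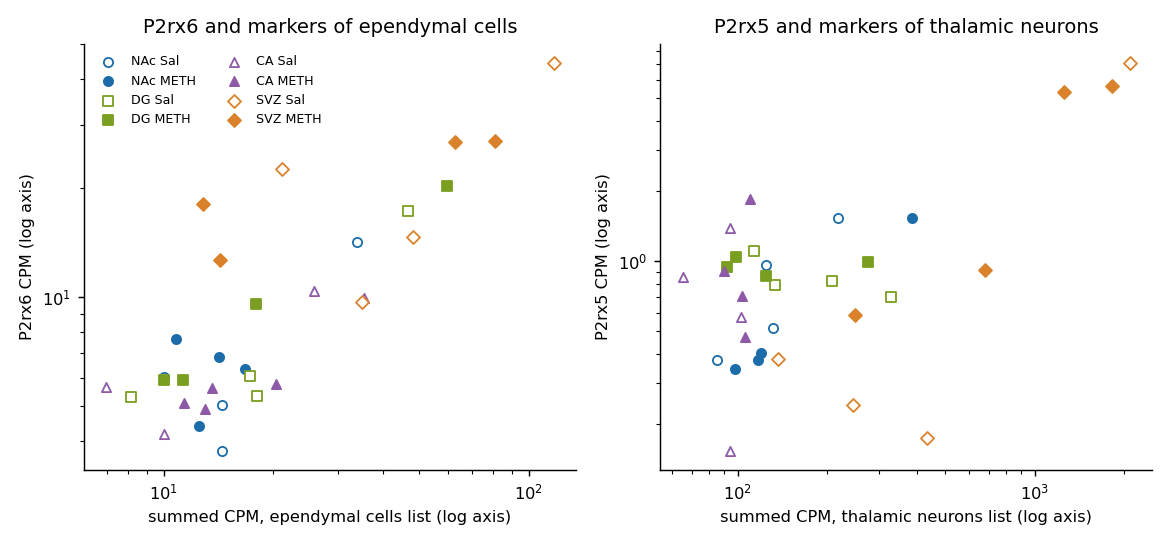
Left, P2rx6 (CPM) against the summed level of the ependymal markers (CPM), and right, P2rx5 (CPM) against the summed level of the thalamic neuron markers (CPM), in the 32 samples on log axes, with shape and colour for region and open symbols for saline. The sample with the highest P2rx6, 44.3 CPM, also has the highest ependymal sum, 117 CPM, and the 3 SVZ samples with P2rx5 above 5 CPM are those with thalamic sums of 1260 CPM or more.

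Over 32 samples, the genes whose log2(CPM + 1) was most like that of P2rx6 were T2 (Pearson r = 0.926), Morn3 (0.925) and Fhad1 (0.909), and over deviations from the group means Morn3 (0.893), T2 (0.889) and Cfap57 (0.879), which encodes a protein of cilia and flagella. The choice of these genes is a ranking over n = 32 samples that share regions and possibly animals.

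The level of P2rx6 depended on how reads were counted. The sample files name an Ensembl annotation in their headers and the methods of the study a UCSC annotation, and which of them applies to the count matrix deposited for the whole series is not given in the sources used here. In that matrix, P2rx6 had 0.732 of the counts in the sample files, and 2.54% of the 14664 genes compared had a lower ratio (the median gene had 0.986). The ratio was 0.629 to 0.937 in SVZ samples, 0.149 to 0.714 in NAc samples, 0.281 to 0.882 in DG samples and 0.222 to 0.654 in CA samples. Saline NAc samples 1 to 4 had 11, 152, 14 and 13 P2rx6 counts in the matrix, against 50, 213, 58 and 82 in the sample files. Saline SVZ samples had 449, 129, 249 and 704 counts, against 479, 205, 306 and 769. The P2rx6 levels and shares given above hold for the sample files only. Shares by the matrix were not computed. By the matrix counts, the log2 fold change of P2rx6 in the SVZ in saline samples was 2.23 (adjusted p = 0.0534, edgeR).

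P2rx5 was high in 3 SVZ libraries and low in the other 29. The gene lies at chr10:59725398-59737126 (rn6, plus strand), and its product is a subunit of which little is known in the brain. In saline SVZ it was at 7.07, 0.38, 0.241 and 0.173 CPM, and in METH SVZ at 0.585, 5.63, 0.919 and 5.35 CPM. All other samples had 0.153 to 1.84 CPM. The 3 high samples are those with the high thalamic sum, and all carry EXTRA in their name, as does the fourth EXTRA library, SVZ saline 2, at 0.38 CPM.

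Library numbers did not go with the P2rx5 level. METH samples 1 and 2, which share a number, had 0.585 and 5.63 CPM, and METH samples 3 and 4, which share another, had 0.919 and 5.35 CPM. Over 32 samples P2rx5 had a correlation of 0.716 with the thalamic sum, and 0.757 over deviations from the group means. With the sum of striatal medium spiny neuron markers it was -0.373 and -0.709, and with that of oligodendrocyte precursors 0.675 and 0.619. The sums of CA pyramidal neurons (-0.609 and -0.543), oligodendrocytes (0.574 and 0.544) and ependymal cells (-0.255 and -0.562) also moved with it. As P2rx5 was high in only 3 SVZ libraries, these correlations may rest on what those libraries share, which was not tested.

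The genes most like P2rx5 were Vipr2, the gene of a receptor for vasoactive intestinal peptide (0.907), Fam20a (0.897) and Akap2 (0.895), and over deviations Fhdc1 (0.915), Vipr2 (0.909) and Zfyve9 (0.904). By Spearman's rank correlation over 32 samples, Vipr2, Fam20a and Akap2 had 0.598, 0.7 and 0.576. Vipr2 was at 47.9, 46.0 and 43.8 CPM in the 3 SVZ libraries with high P2rx5, and at 3.08 to 4.09 CPM in the other 5. For P2rx5, the SVZ compared with the rest of the regions had a log2 fold change of 1.26 (SE 0.73, adjusted p = 0.299) in saline samples and 1.86 (SE 0.50, adjusted p = 0.0158) in METH samples by edgeR. Without the EXTRA libraries it was -1.93 (adjusted p = 0.136) and -0.18, so that its sign rested on them. In METH samples without NAc METH 3 it was 2.13 (adjusted p = 0.00605, edgeR), and the gene was called. Whether the 3 SVZ libraries with high P2rx5 hold thalamic tissue was not tested, nor was the part of such tissue in the P2rx5 level.

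P2rx4 and P2rx7 lie next to each other on chromosome 12, at chr12:39308025-39325673 and chr12:39353613-39396042 on the minus strand of rn6, 27940 bases apart. Both were found in every sample and varied less than the other members. In saline samples P2rx4 was at 19.1, 9.69, 11.9 and 14.8 CPM in the SVZ, and NAc samples had 7.69, 9.21, 9.23 and 8.87 CPM, DG samples 7.75, 15.7, 13.3 and 11.3 CPM, and CA samples 9.59, 11.0, 10.1 and 12.3 CPM. P2rx7 was at 13.9, 8.98, 11.6 and 18 CPM in the SVZ, and NAc samples had 9.8, 11.1, 10.9 and 8.72 CPM, DG samples 9.63, 12.6, 10.1 and 9.92 CPM, and CA samples 8.52, 9.59, 7.58 and 9.55 CPM. For both genes the SVZ mean was the highest and the groups overlap.

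Against the other regions in saline samples, the SVZ had log2 fold changes of 0.42 (SE 0.17, adjusted p = 0.149) for P2rx4 and 0.42 (SE 0.14, adjusted p = 0.0955) for P2rx7 by edgeR. In METH samples they were 0.37 (SE 0.11, adjusted p = 0.0261) and 0.61 (SE 0.17, adjusted p = 0.0166). All 4 values are below 2-fold, and no value was called. Without the EXTRA libraries they were 0.36 and 0.60 in saline samples and 0.18 and 0.53 in METH samples. In the count matrix of the whole series, P2rx4 had 0.881 of the counts in the sample files and P2rx7 0.981. The P2rx4 ratio was 0.613 to 0.919 in saline SVZ samples, 0.726 to 0.917 in METH SVZ samples and 0.822 to 0.976 elsewhere. The lowest P2rx4 was in the NAc, at -0.47 (SE 0.18, adjusted p = 0.259) against the other regions, and the lowest P2rx7 in the CA, at -0.35 (SE 0.15, adjusted p = 0.171, edgeR). At an unadjusted p under 0.05, 15% of all genes differed in the NAc and 25.7% in the CA.

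P2rx4 and P2rx7 varied together, with a correlation of 0.632 over 32 samples and 0.608 over deviations from the group means. Although both are known from microglia, they did not follow the sum of 10 microglial markers, with correlations of -0.272 for P2rx4 and -0.028 for P2rx7 over 32 samples, and 0.149 and 0.0881 over deviations. That sum itself moved little, from 245 to 407 CPM. P2rx7 had its higher correlations with the sums of thalamic neurons (0.720 and 0.406) and oligodendrocytes (0.695 and 0.574), and P2rx4 likewise (0.679 and 0.614 for thalamic neurons, 0.524 and 0.537 for oligodendrocytes). The sum of oligodendrocyte precursors was near these, with 0.607 and 0.453 for P2rx7 and 0.456 and 0.53 for P2rx4.

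The oligodendrocyte sum was 20000, 4180, 9730 and 8080 CPM in saline SVZ and 10300, 27600, 9350 and 29200 CPM in METH SVZ, against 2500 to 15500 CPM elsewhere, and its part in the levels of P2rx4 and P2rx7 was not tested. The genes most like P2rx4 were Vldlr (0.754), Myo1e (0.739) and Cdc42bpa (0.709), and over deviations Efhd1 (0.765), Bcl2l11 (0.752) and Hemk1 (0.749). For P2rx7 they were Mybl1 (0.859), Clic4 (0.837) and Nek1 (0.832), and Lmf2 (0.774), Kif6 (0.755) and Nek1 (0.745). Vldlr encodes a receptor for reelin and Clic4 a chloride intracellular channel protein.

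P2rx2 (chr12:52397792-52401015, plus strand) and P2rx3 (chr3:72403993-72447801, minus strand, rn6), which together form a channel of sensory neurons, were at low levels in all regions. P2rx2 lay at 0.151 to 2.03 CPM in 31 samples and at 5.84 CPM, 84 counts, in NAc METH 3, whose 3 companions had 0.2 to 0.516 CPM. P2rx3 lay between 0.377 and 2.63 CPM, and 30 of its exon bases are shared with Ssrp1 on the opposite strand, whose reads cannot be told apart there. The SVZ differed from the other regions in saline samples by -1.02 (SE 0.56, adjusted p = 0.279, edgeR) for P2rx2 and -0.13 (SE 0.43) for P2rx3 on the log2 scale.

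The genes most like P2rx2 were Maged2 (0.827), Gprasp2 (0.815) and Minar2 (0.801), and over deviations Minar2 (0.896), Lhx5 (0.881) and Maged2 (0.86). Lhx5, a homeobox gene of the developing forebrain and hypothalamus, was at 9.31 CPM (134 counts) in NAc METH 3 and at 0.0668 to 0.188 CPM in the other METH samples of the NAc. For P2rx3 the highest values were lower, 0.653 (Pigx), 0.646 (Dsc2) and 0.646 (Grhpr), and over deviations 0.788 (Hhat), 0.742 (Ift81) and 0.739 (Spef2).

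By edgeR, none of the 6 genes was called for a region in saline samples with all libraries in the fit. Of all genes, 0% were called region-specific for the NAc, 0% for the DG and 0.226% for the CA (35 genes), and at an unadjusted p under 0.05 the DG had 6.78%. A test of any difference among the regions in saline samples gave adjusted p-values of 0.105 for P2rx6, 0.174 for P2rx7, 0.184 for P2rx4 and 0.518 to 0.952 for the others by edgeR, and 0% of all genes passed at 0.01. The SVZ did not separate from the other regions in any of the 6 genes, in saline or in METH samples, where 1.54% and 3.08% of all genes had groups that did not overlap.

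**Figure D4:**
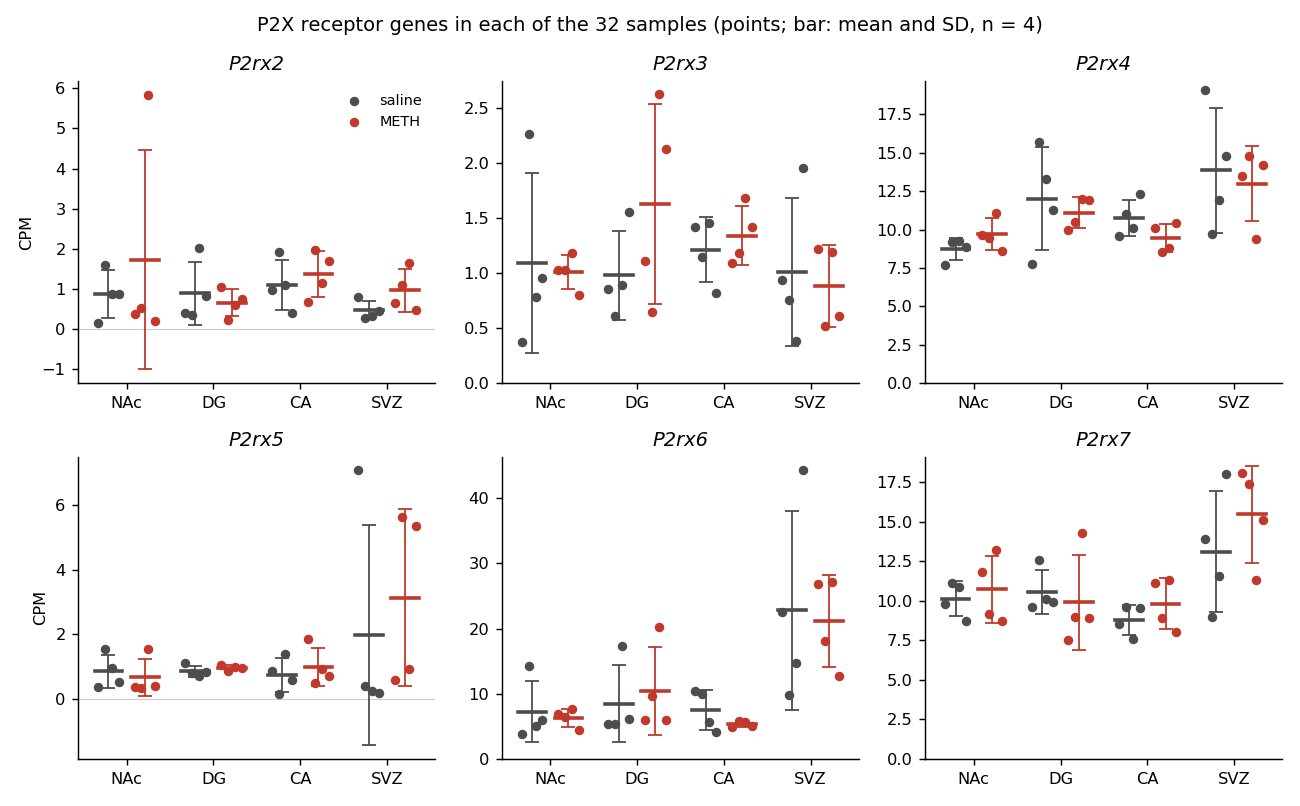
CPM of the 6 P2X genes in each of the 32 samples by region (points), saline in grey and METH in red, with the mean and SD of each group (bars, n = 4). Saline and METH points overlap in every region, and the SVZ points of P2rx6 reach 44.3 CPM.

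The comparison of METH with saline asks which genes had changed 24 h after the exposure. No change of a P2X gene with METH was found in any region. The call rule was an adjusted p under 0.01 with over 1.5-fold change in either direction, and edgeR called 0 of the 6 genes in each region, where 0% of all genes were called in the NAc, DG, CA and SVZ alike, and 0 of 6 reached an unadjusted p under 0.05, where 3.39%, 12.8%, 7.16% and 2.58% of all genes did. DESeq2 called 3, 193, 13 and 2 genes in these regions and 0 of the P2X genes. P2rx5 did not pass the filter on low counts in the NAc and was not tested there. Saline and METH samples overlapped for all 6 genes in every region, and 2.4%, 7.11%, 4.32% and 1.58% of all genes had groups that did not overlap.

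P2rx4 and P2rx7 gave the narrowest errors. For P2rx4 in METH samples, the NAc had 9.68, 9.46, 11.1 and 8.62 CPM, the DG 10.0, 10.5, 12.0 and 11.9 CPM, the CA 10.1, 8.51, 8.8 and 10.4 CPM and the SVZ 13.5, 14.8, 9.42 and 14.2 CPM, overlapping the saline values in each region. The log2 fold changes of METH over saline, in the order of the levels, were 0.16 (SE 0.12), -0.12 (SE 0.21), -0.18 (SE 0.12) and -0.09 (SE 0.24).

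For P2rx7 in METH samples, the NAc had 11.8, 9.2, 13.2 and 8.75 CPM, the DG 7.5, 8.95, 14.3 and 8.92 CPM, the CA 11.1, 8.91, 11.3 and 8.02 CPM and the SVZ 18.1, 17.4, 11.3 and 15.1 CPM. Its log2 fold changes were 0.10 (SE 0.16), -0.09 (SE 0.21), 0.16 (SE 0.15) and 0.24 (SE 0.24) in the same order. For P2rx6 they were -0.19 (SE 0.40), 0.29 (SE 0.54), -0.50 (SE 0.28) and -0.10 (SE 0.47), the CA value having an adjusted p of 0.715 by edgeR.

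Without the DG libraries with crossed numbers, the DG values were -1.08 (P2rx2), 0.96 (P2rx3), -0.05 (P2rx4), 0.34 (P2rx5), 0.16 (P2rx6) and 0.21 (P2rx7), with 2 samples a group, and none was called.

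The errors of the low genes were wider than those of P2rx4 and P2rx7, up to 1.26 on the log2 scale. P2rx2 had the largest values, 1.01 (SE 1.04, adjusted p = 0.999) in the NAc, where METH sample 3 carries the mean, and 1.03 (SE 0.50, adjusted p = 0.979) in the SVZ by edgeR. The DG had -0.48 (SE 0.64) and the CA 0.32 (SE 0.46). Without NAc METH 3 the NAc value of P2rx2 was -1.29 (adjusted p = 0.944, edgeR), and without the EXTRA libraries its SVZ value was 1.53 (adjusted p = 0.997, edgeR). P2rx3 had 0.74 (SE 0.48, adjusted p = 0.586, edgeR) in the DG and -0.18 to 0.14 elsewhere. For P2rx5 the DG had 0.18 (SE 0.24), the CA 0.34 (SE 0.59) and the SVZ 0.67 (SE 1.26), where the groups hold 1 and 2 of the libraries with high thalamic sums. With the EXTRA libraries left out, P2rx5 in the SVZ had 1.83 (adjusted p = 0.947, edgeR), with 2 samples a group. With a single sample left out it ranged from 0.21 (without METH 2) to 3.52 (without saline 1), and with 4 RUVr factors, which stand for unwanted variation, it was 1.56 (adjusted p = 0.0154, edgeR), and no alternative tried called it.

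**Figure D5:**
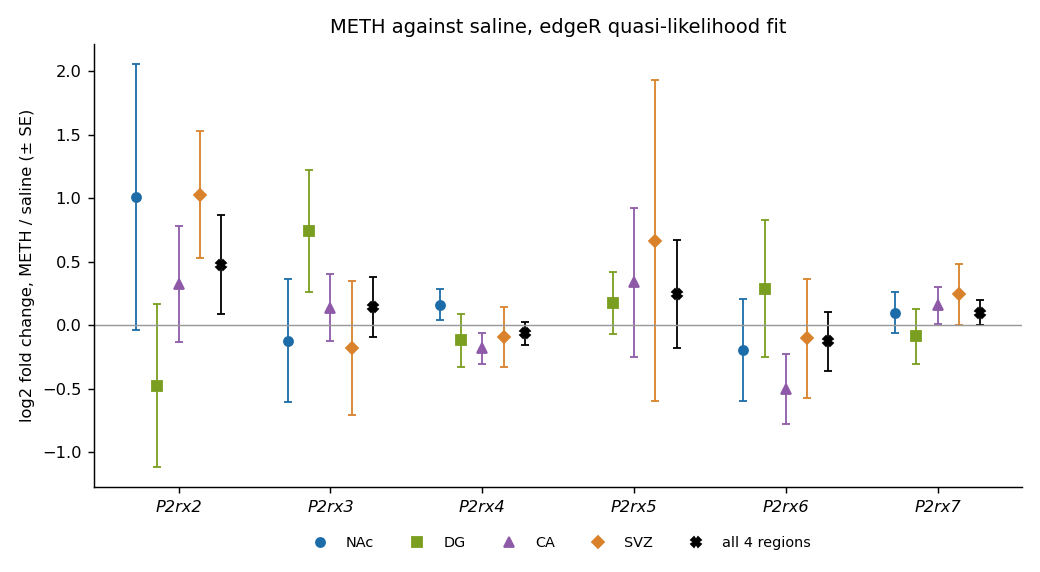
Log2 fold change of METH over saline (± SE, edgeR) for each P2X gene in the 4 regions (coloured symbols) and over all regions (black crosses). The errors of P2rx4 and P2rx7 are the smallest, and those of P2rx2 in the NAc and P2rx5 in the SVZ exceed 1.

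Taking all 32 samples in a fit with region as a covariate, the log2 fold change of METH was -0.06 (SE 0.09) for P2rx4, 0.10 (SE 0.10) for P2rx7, -0.13 (SE 0.23) for P2rx6, 0.25 (SE 0.43) for P2rx5, 0.48 (SE 0.39) for P2rx2 and 0.15 (SE 0.24) for P2rx3. P2rx1 had 0.39 (SE 0.24). Without NAc METH 3 the value of P2rx2 was 0.0082. With all libraries, none of the 6 was called or reached an unadjusted p under 0.05, with 0% of all genes called and 7.45% at an unadjusted p under 0.05. The effect of METH did not differ detectably between regions for any P2X gene, with adjusted interaction p-values of 0.971 to 1.00 by edgeR and 0% of all genes called at 0.01.

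The genes around the receptors in the pathway were counted from a list of 40, which holds P2rx1, P2Y and adenosine receptors, enzymes that break down extracellular nucleotides, adenosine transporters, channels that release ATP and the inflammasome genes downstream of P2X7. With METH, none was called. An unadjusted p under 0.05 was reached by 2 of 31 tested in the NAc, 2 of 31 in the DG, 3 of 31 in the CA and 1 of 33 in the SVZ, all of them higher with METH, beside the shares of all genes given above. Those shares are for either direction. Of all genes at that p, 357 were higher and 143 lower in the NAc, and 940 and 950 in the DG. The CA had 639 and 407, and the SVZ 185 and 217. Over all regions, 4 of 34 genes of the list were higher and 2 lower. Without the EXTRA libraries the SVZ had 1 higher and 2 lower of 33, where 5.1% of all genes reached that p, and without the DG libraries with crossed numbers the DG had 1 higher and 1 lower of 34, where 6.72% did.

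Adora1, the gene of the adenosine A1 receptor, was at 114 ± 26.2 CPM in saline DG and 180 ± 22.7 CPM in METH DG (SD, n = 4), a log2 fold change of 0.66 (SE 0.18, adjusted p = 0.219, edgeR). Without the DG libraries with crossed numbers it was 1.03 (adjusted p = 0.731, edgeR). Adora2b had 0.46 in the DG (adjusted p = 0.326) and 0.38 over all regions (adjusted p = 0.499, edgeR). In the NAc the inflammasome genes Gsdmd and Pycard had 0.61 and 0.71, with adjusted p = 0.999 for both by edgeR. In the CA, Enpp1, which cleaves extracellular ATP, had 0.54, P2ry1 0.84 and Panx1, a channel for ATP release, 0.20, with adjusted p of 0.669 to 0.688 by edgeR. Slc29a4, a transporter of monoamines and adenosine, was at 8.54 ± 2.02 CPM in saline SVZ and 14.1 ± 1.1 CPM in METH SVZ, with 0.73 (SE 0.18, adjusted p = 0.979, edgeR), and 0.79 (adjusted p = 0.915) without the EXTRA libraries. Over all regions, Pycard had 0.38, Slc29a4 0.32 and Entpd1, an enzyme that breaks down ATP, -0.44.

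Of 32 genes of the list tested between regions in saline samples, the NAc had 8 higher and 2 lower genes with an unadjusted p under 0.05, where 15% of all genes reached that p. The DG had 2 and 0 (6.78% of all genes), the CA 3 and 6 (25.7%) and the SVZ 5 and 2 (25.4%), and none was called. Calhm2, of the family of ATP-release channels, had 1.51 in the CA (adjusted p = 0.0181), 1.29 in the DG (adjusted p = 0.335) and -1.64 in the SVZ (adjusted p = 0.0335). Without the DG libraries with crossed numbers it was 1.68 in the CA (adjusted p = 0.00922, edgeR) and was called. P2ry1, a receptor for ADP, had -2.31 in the CA (adjusted p = 0.0449) and 1.57 in the NAc (adjusted p = 0.229), and Entpd3 -2.0 (adjusted p = 0.0383) and 1.5 (adjusted p = 0.208), by edgeR. In the METH samples of the SVZ, an unadjusted p under 0.05 was reached by 6 of 32 that were higher and 1 that was lower (39.9% of all genes), and Slc29a1, a main nucleoside transporter, was called at 1.08 (adjusted p = 0.00928). Slc29a1 was not called without the EXTRA libraries, at 0.37 (adjusted p = 0.355), or without the DG libraries with crossed numbers, at 1.03 (adjusted p = 0.0246, edgeR). Calhm2 was lower, at -1.15 (adjusted p = 0.00508), a direction that the rule for region-specific genes does not count, and -0.76 (adjusted p = 0.0644) without the EXTRA libraries. The adenosine kinase gene Adk had 0.26 (adjusted p = 0.0263) and P2ry2, a receptor for ATP and UTP, 1.18 (adjusted p = 0.0290). Without the EXTRA libraries these values were 0.11 and 0.49 (adjusted p = 0.507 and 0.539, edgeR).

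P2rx2 had correlations of 0.452 and 0.513 with the microglial sum, over samples and over deviations, and of -0.406 and -0.545 with that of CA pyramidal neurons. NAc METH 3, the sample with the highest P2rx2, 5.84 CPM, also had the highest microglial sum, 407 CPM. Its CA pyramidal sum was 104 CPM, the lowest outside the SVZ. The correlations of P2rx2 without this sample were not computed. The CA pyramidal sum had -0.500 and -0.428 with P2rx4 and -0.538 and -0.345 with P2rx7, and the sum of dentate granule neurons -0.257 and -0.428 with P2rx4 and -0.417 and -0.554 with P2rx7. P2rx6 had -0.567 and -0.235 with the endothelial sum. P2rx3 had 0.236 and 0.462 with the ependymal sum. Among the P2X genes, P2rx6 and P2rx7 had 0.689 and 0.508, and P2rx3 and P2rx6 0.216 and 0.625.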

How the data were processed

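RNA-seq reads of 32 samples were trimmed with cutadapt 2.7, checked with FastQC 0.11.4 and mapped to rn6 with STAR 2.5.2b, per the submitters' processing notes. The files deposited by the authors hold raw counts of reads on each gene, from featureCounts run without strand. Counts were analysed here in R 4.3.3 with edgeR 4.0.16: upper-quartile normalization, filterByExpr and the quasi-likelihood test, with adjustment over all genes tested. METH effects were called at an FDR under 0.01 with over 1.5-fold change, and a region at an FDR under 0.01 and over 2-fold higher. SEs are the fold change divided by the root of the F statistic. Deposited counts of a series matrix, DESeq2 1.42.0, TMM, other filters, RUVr factors, covariates and left-out samples were alternatives. Leaving out libraries that stand apart was chosen after seeing the data. limma 3.58.1 is loaded by edgeR. Python 3.11.15 was used for tables and plots.

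The 6 genes, the gene lists and the marker lists were chosen with earlier results of these data known. The text names the 6 P2X genes, P2rx1, genes of the purinergic list that were called or had the smallest p in a comparison (up to 4 at an unadjusted p under 0.05) and, for each P2X gene, the 3 genes with the highest correlation. Ssrp1, Lrrc74b, Slc7a4, Thap7 and Lztr1 are named for their position. Same-group samples differed by more than counting noise (48 pairs), and labels do not say how samples relate to animals, so p-values measure the spread between these samples. Numbers in the headers recur across the NAc, DG and CA and within the METH samples of the SVZ, and the fits have no term for animal. The procedures were tested on simulated data.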

Additional observations from a re-analysis of the deposited data

Results flagged for a closer look

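Of the 48 sets of 4 samples (6 genes in 8 groups), 5 held a sample far from its group by Dixon's test, and chance gives about 1 in 20. P2rx2 was at 5.84 CPM in NAc METH 3, against 0.2 to 0.516 CPM in the other METH samples of the NAc. P2rx5 was at 1.53 CPM in the same sample, against 0.344 to 0.401 CPM. P2rx5 was at 7.07 CPM in SVZ saline 1, against 0.173 to 0.38 CPM in the other saline SVZ samples. P2rx6 was at 17.3 CPM in DG saline 3, against 5.32 to 6.06 CPM. P2rx7 was at 12.6 CPM in DG saline 2, against 9.63 to 10.1 CPM. The sample NAc METH 3 was flagged in both P2rx2 and P2rx5, with a thalamic sum of 385 CPM, the highest outside the SVZ, and a medium spiny neuron sum of 301 CPM, the lowest of the NAc. The part of its tissue in these values was not tested.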

How the results depend on the processing

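Of 432 alternative values of 37 P2X fold changes, 411 kept their direction and their side of the threshold, 3 (P2rx6 in the SVZ against other regions, by DESeq2 and in METH samples with and without the EXTRA libraries) passed it and 18 changed sign. Of 312 values with a sample left out, 293 were the same and 19 changed sign. P2rx5 in the NAc had no value as reported. Low counts and 4 samples a group limit P2rx2, P2rx3 and P2rx5. The causes were not tested.

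Within a region, same-numbered saline and METH samples did not deviate together in every pair (correlations from -0.771 to 0.397). Whether same-numbered samples of different regions pair was not tested. With the replicate block, METH over saline was 0.060 for P2rx3 in the NAc and 0.11 for P2rx6 and 2.26 for P2rx5 in the SVZ, 0 genes were called with METH in each region, and region-specific genes in saline samples numbered 0 in the CA and 5 in the SVZ. With the name prefix in the header as a covariate, METH over saline was -0.94 (P2rx2), 0.25 (P2rx3) and 0.26 (P2rx6) in the NAc, -0.017 (P2rx3) and -1.17 (P2rx6) in the DG and -0.049 (P2rx5) and 0.13 (P2rx6) in the CA. P2rx7 in the DG was 0.21 without the libraries with crossed numbers. P2rx2 in the DG was 0.035 with 2 RUVr factors, and P2rx3 in the NAc 0.0081 with 4. Over all regions, P2rx3 was -0.054 without the DG. Without the EXTRA libraries, METH over saline in the SVZ was 0.062 for P2rx3 and -0.0091 for P2rx7, and the SVZ against other regions was 0.082 for P2rx3 and -1.93 for P2rx5 in saline samples and -0.18 for P2rx5 in METH samples.

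With a sample left out, METH over saline ranged in the NAc from -1.29 to 1.49 (P2rx2), -0.41 to 0.53 (P2rx3), -0.42 to 0.36 (P2rx6) and -0.020 to 0.18 (P2rx7). In the DG it ranged from -0.77 to 0.34 (P2rx2), -0.28 to 0.034 (P2rx4), -0.27 to 0.91 (P2rx6) and -0.32 to 0.026 (P2rx7), in the CA from -0.12 to 0.83 (P2rx5), and in the SVZ from -0.45 to 0.35 (P2rx3), -0.24 to 0.094 (P2rx4), 0.21 to 3.52 (P2rx5) and -0.36 to 0.44 (P2rx6). The saline SVZ against other regions ranged from -0.65 to 0.14 (P2rx3), -1.58 to 1.64 (P2rx5) and 1.01 to 1.80 (P2rx6).

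Genes called with METH over all genes numbered 3, 193, 13 and 2 in the NAc, DG, CA and SVZ by DESeq2, 117, 9 and 1 in the DG, CA and SVZ by edgeR's likelihood ratio test, 37 in the DG with 1 RUVr factor, 162 and 17 in the DG and SVZ with 2 factors, and 1, 460 and 231 in the NAc, DG and SVZ with 4. Region-specific genes numbered 82 in the CA and 3 in the SVZ with TMM, 6, 3, 266 and 79 (NAc, DG, CA, SVZ) by DESeq2, 1 in the SVZ without a filter, 124, 184 and 316 (NAc, DG, SVZ) in METH samples, 0 and 5 (CA, SVZ) with the other 12 samples pooled, 0 and 0 (CA, SVZ) without the EXTRA libraries, 31, 199 and 0 (DG, CA, SVZ) without the DG libraries with crossed numbers, and 114, 195 and 166 (NAc, DG, SVZ) in METH samples without the EXTRA libraries. With a saline sample left out they numbered 0 to 44, 0 to 23, 0 to 161 and 1 to 57 in the NAc, DG, CA and SVZ, the highest counts of the NAc, DG and SVZ being without DG saline 3. Of the 36 genes most like a P2X gene, 10 were the same by Spearman's rank correlation and 24 with a pseudocount of 0.1.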
